A study of Mus musculus with 6 samples.

Results

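The genes described here are the mouse chemokines and their receptors, 58 of the 33919 genes in the deposited table. They were chosen by gene symbol alone: the CC and CXC ligands (Ccl, Cxcl), their receptors (Ccr, Cxcr), the CX3C and XC ligands and receptors, and the atypical receptors (Ackr). The set held 38 ligands, 16 conventional receptors and 4 atypical receptors. Of the 58 genes, 52 had a count in at least 1 library, 31 had a count in every library, and 6 had none (Ccl1, Xcl1, Cxcl5, Cxcl3, Ccr8 and Ccr4).

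RNA from mouse aorta was sequenced in 6 libraries: 3 labelled WT and 3 labelled KO, all from mice given Ang II (angiotensin II, which constricts vessels and raises blood pressure). No untreated aorta is among the libraries, so every comparison is between genotypes under Ang II. The title of the series names endothelial OTUD1, a deubiquitinase, and the labels give the second genotype only as KO, without the allele, the Cre line, the age, sex or strain, or the dose and duration of Ang II. The tissue label is aorta, while the extraction protocol refers to an adipose type of RNA.

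Chemokines are small proteins that direct the movement of leukocytes. They bind to glycosaminoglycans on the vessel wall and signal through receptors coupled to inhibitory G proteins, which are found mostly on leukocytes. Atypical receptors bind chemokines without that signalling, and remove or transport them. In the vessel wall, endothelium, smooth muscle, adventitial fibroblasts and resident macrophages all make chemokines, and the ligands are usually grouped into inflammatory ones, induced by cytokines, and homeostatic ones, made constantly in lymphoid and other tissues.

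Otud1, the gene named in the title, was not lower in the KO-labelled libraries. Its counts were 593, 699 and 615 in the WT-labelled libraries, and 1033, 1141 and 1223 in the KO-labelled libraries. It was higher in the KO-labelled libraries, with a log2 fold change of 0.63 and an adjusted p of 0.0039 (edgeR quasi-likelihood test, Benjamini-Hochberg). The sources used here do not say which part of the gene the KO removes. The title speaks of endothelial OTUD1, and RNA from whole tissue does not show which cells the Otud1 counts came from. Each group is for these reasons called by its label, and every direction given here rests on that label. Total counts ran from 62.3 to 71.5 M per library. Mitochondrial genes took 50.5% to 57.8% of them and their nuclear copies another 14.3% to 16.0%, which left 17.3 to 23.4 M counts for all other genes. Between 10216 and 14125 counts per library fell on the 58 genes. Skeletal muscle markers summed to 6150 to 6760 FPKM in the WT-labelled libraries and 9490 to 10500 in the KO-labelled libraries, and adipocyte markers to 778 to 859 and 1030 to 1160 FPKM, against 155 to 170 and 49.1 to 53.6 FPKM for smooth muscle markers. No label ties a library to an animal, so the p-values reflect only how far these 6 libraries vary within their groups, which may be technical.

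Ligand transcripts made up most of the chemokine expression. The 38 ligands summed to 49.0, 48.2 and 52.5 FPKM (fragments per kilobase of transcript, scaled to library size, a level that can be compared between genes) in the WT-labelled libraries and 61.7, 60.3 and 56.6 FPKM in the KO-labelled libraries. The 16 conventional receptors summed to 1.7, 1.5 and 1.74 FPKM, and to 1.99, 1.46 and 1.5 FPKM. The 4 atypical receptors summed to 4.79, 4.31 and 5.13 FPKM, and to 7.40, 7.30 and 6.79 FPKM. On the FPKM scale the median gene was 0.12 higher on the log2 scale in the KO-labelled libraries (pseudocount 0.1), against -0.02 for the scaled counts, so differences between groups are tested below on counts and FPKM is used for levels. Of the 58 genes, 15 reached a mean of 1 FPKM in at least 1 group, 13 of them ligands and the other 2 atypical receptors, and no conventional receptor did.

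**Figure D1:**
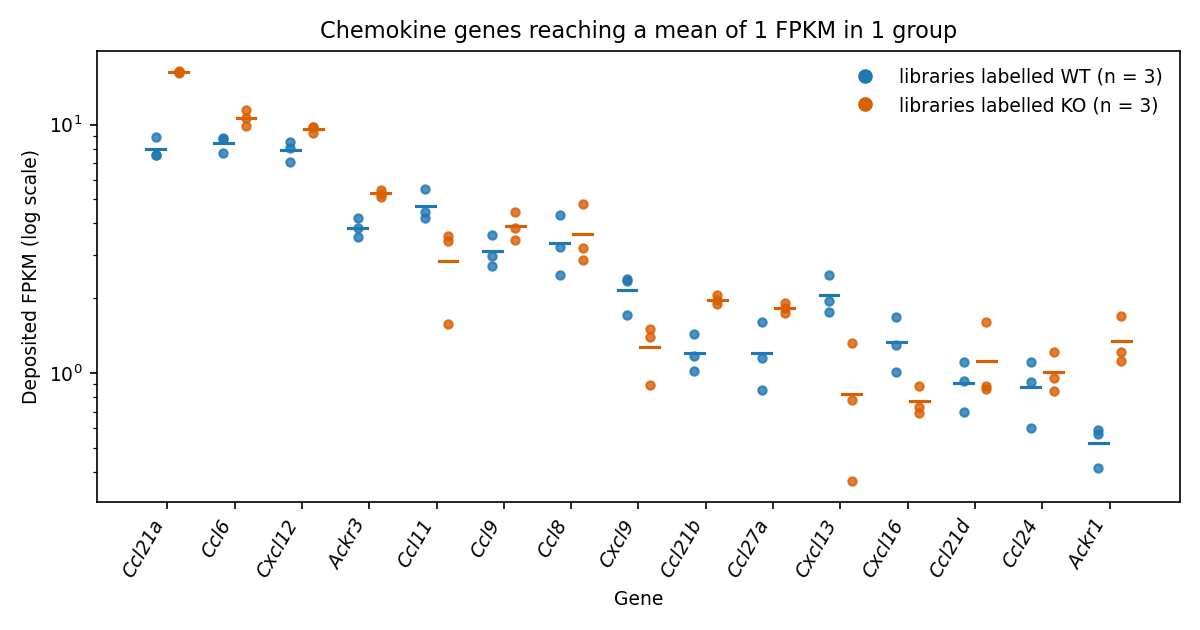
Deposited FPKM (log axis) of the 15 genes with a mean of at least 1 FPKM in 1 group, with 1 point per library and a line at each group's mean. Ccl21a was the highest in the KO-labelled libraries, between 16.1 and 16.4 FPKM, and its groups do not overlap.

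After the filter on low counts, 38 of the 58 genes were tested: 26 ligands, 8 conventional receptors and the 4 atypical receptors. Of these, 37 reached the filter's level in at least 1 library of each group, and Ccr9 reached it only in the KO-labelled libraries. Ccl12, among the 37, had a count in only 1 KO-labelled library. The other 20 genes had at most 45 counts in any library. At an adjusted p under 0.05 (edgeR quasi-likelihood test over all genes), 6 of the 38 tested genes differed, or 15.8%, against 22.0% of the 16620 genes tested. Ccl21a, Ackr3 and Ackr1 were higher in the KO-labelled libraries, where 11.5% of all tested genes were higher. Cxcl9, Cxcl13 and Cxcl16 were lower, where 10.5% of all tested genes were lower. The median log2 fold change was 0.15 over the 38 genes and -0.02 over all tested genes. The sign of the first turned without the filter on low counts (-0.055) and without KO library 1 (-0.115), and it was 0.051 without KO library 3 and 0.062 without WT library 3. The median size of the change was 0.55 over the 38 genes and 0.34 over all tested genes. In 17 of the 38 genes the scaled counts of the 2 groups did not overlap, or 44.7%, against 38.6% of all tested genes. The share of chemokine genes called was below that of all tested genes here and under 13 of 16 alternatives, and above it under 3: 31.8% against 29.5% with a mean CPM of at least 1, 29.2% against 28.4% with counts divided by 4, and 25% against 20.9% with limma on log2(FPKM + 0.1). The difference between the shares was not tested.

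**Figure D2:**
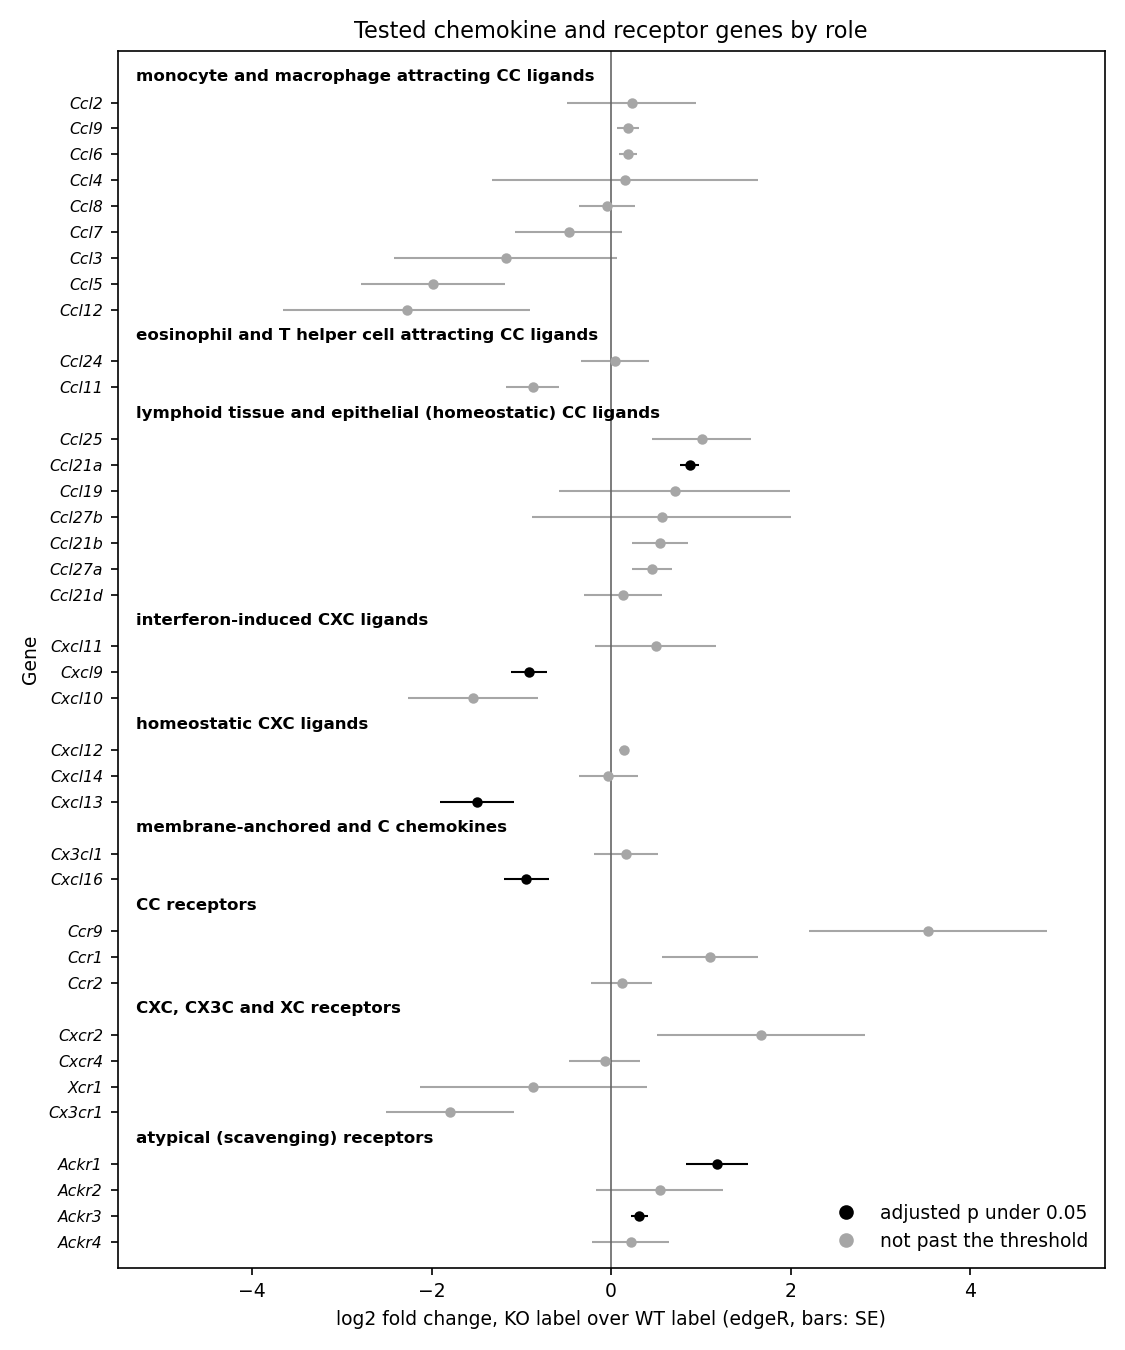
Log2 fold change of 37 of the 38 tested genes, libraries labelled KO over those labelled WT, with the standard error as a bar, grouped by role. The 6 genes past the threshold are in black: Ccl21a, Ackr1 and Ackr3 above 0, and Cxcl9, Cxcl13 and Cxcl16 below.

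The clearest change was in Ccl21a, a ligand of CCR7 that guides dendritic cells and T cells and is made by lymphatic endothelium and lymphoid stroma. The gene (ENSMUSG00000094686) lies on the minus strand at chr4:42772860-42773993 (GRCm38). Its FPKM was 7.58, 7.52 and 8.89 in the WT-labelled libraries and 16.1, 16.4 and 16.3 in the KO-labelled libraries. All 3 libraries labelled KO were above all 3 labelled WT, with little spread inside either group. The scaled level was 8.09 ± 0.431 CPM (counts scaled to library size; SD, n = 3) against 14.85 ± 0.630 CPM, a 1.84-fold difference (log2 fold change 0.88, SE 0.10, adjusted p = 0.00015, edgeR). Its receptor gene Ccr7 was not tested, with counts of 10, 8 and 15 against 8, 0 and 8.

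Ccl21a has near-identical copies in the mouse genome, and reads can be assigned to the wrong one. Ccl21b, Ccl21d, Gm10591 and Gm13304 have 1 and the same coding sequence of 402 bases, which differs from that of Ccl21a at 2 positions, T84A and C194T, with the Ccl21a base first and positions counted from the A of the start codon. The stretches around both positions are shown because these bases are all that separates the copies in the coding sequence, with the differing base in capitals (GENCODE M21 transcripts, bases 64 to 104 and 174 to 214).
Ccl21a, bases 64 to 104: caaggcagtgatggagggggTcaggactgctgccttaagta
Ccl21b, bases 64 to 104: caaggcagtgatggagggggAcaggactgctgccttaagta
Ccl21a, bases 174 to 214: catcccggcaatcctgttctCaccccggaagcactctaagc
Ccl21b, bases 174 to 214: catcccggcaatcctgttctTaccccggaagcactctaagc
The promoter windows are as close. The 250 bases before the start of Ccl21a (chr4:42773992-42774241, minus strand) and of Ccl21d (chr4:41903363-41903612, plus strand) differ by 1 mismatch over 249 aligned bases, which is in capitals here (RefSeq, GRCm38.p6).
Ccl21a promoter: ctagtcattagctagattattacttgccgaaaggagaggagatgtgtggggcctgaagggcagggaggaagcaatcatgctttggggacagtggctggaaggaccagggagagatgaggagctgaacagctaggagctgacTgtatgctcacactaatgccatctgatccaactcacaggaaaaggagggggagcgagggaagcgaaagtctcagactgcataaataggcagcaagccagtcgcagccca
Ccl21d promoter: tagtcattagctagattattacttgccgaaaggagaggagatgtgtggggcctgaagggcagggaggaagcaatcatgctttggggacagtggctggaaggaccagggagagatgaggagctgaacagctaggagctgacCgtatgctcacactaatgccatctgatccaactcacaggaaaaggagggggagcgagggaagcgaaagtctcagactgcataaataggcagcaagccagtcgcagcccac

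The copies were therefore also counted together, an alternative added after the data were seen. Their summed level was 12.50, 13.46 and 12.64 CPM in the WT-labelled libraries and 19.91, 21.45 and 20.88 CPM in the KO-labelled libraries. The groups stayed apart, with a 1.61-fold difference (log2 fold change 0.69, SE 0.09, adjusted p = 0.00028, edgeR). Ccl21a took 61.9%, 59.2% and 67.8% of these counts in the WT-labelled libraries and 70.9%, 70.6% and 73.2% in the KO-labelled libraries. Ccl21b, the copy known from lymphatic vessels outside lymphoid organs, was at 1.02, 1.43 and 1.17 FPKM against 1.89, 2.06 and 1.97 FPKM. Its groups did not overlap, but the test did not call it (log2 fold change 0.54, SE 0.32, adjusted p = 0.27, edgeR). Ccl21d was at 0.694, 1.11 and 0.928 FPKM against 1.60, 0.863 and 0.887 FPKM, with overlapping groups and a log2 fold change of 0.14 that turned negative without WT library 1 or KO library 1 (-0.02 and -0.17). How far the assignment of reads between copies sets these separate values was not tested.

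**Figure D3:**
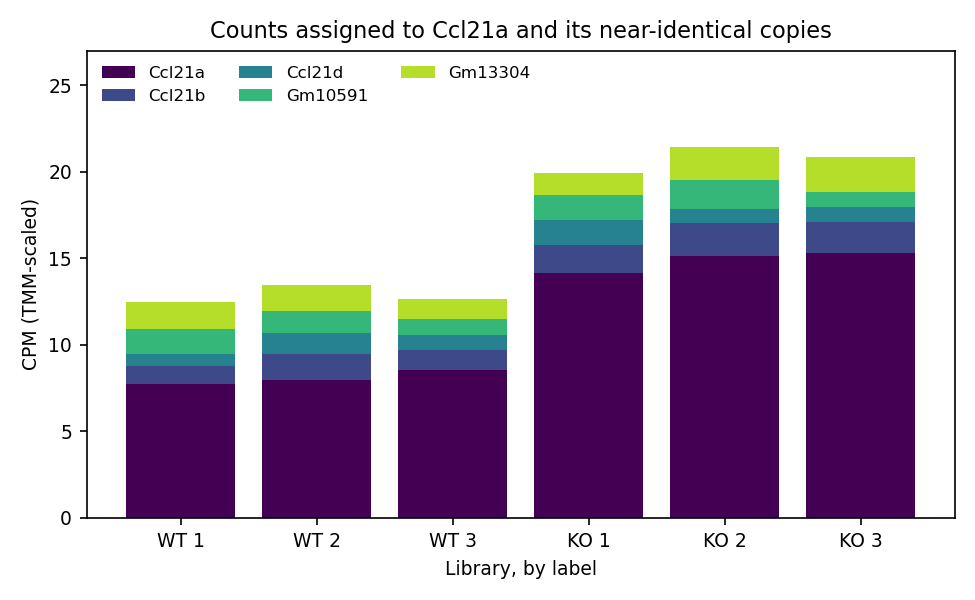
Scaled counts (CPM) assigned to Ccl21a and its 4 near-identical copies, stacked, in each library. The stacks reach 12.50 to 13.46 CPM in the WT-labelled libraries and 19.91 to 21.45 CPM in the KO-labelled libraries, and Ccl21a is the largest share in all 6.

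Markers of lymphatic endothelium, other than Ccl21a itself, did not move as a group beside it. Of 5 tested, Flt4 (VEGF receptor 3) was higher, with a log2 fold change of 0.60 (adjusted p = 0.012, edgeR), and the others did not pass the test. Of all tested genes, 11.5% were higher. Prox1, the defining transcription factor, had a log2 fold change of -1.08 (adjusted p = 0.19, edgeR) and Pdpn one of -0.44. The list summed to 4.85 to 6.16 FPKM in the WT-labelled libraries and 5.22 to 6.54 FPKM in the KO-labelled libraries.

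The other homeostatic CC ligands, which act in lymphoid tissue and epithelia, had log2 fold changes above 0 without passing the test. Ccl27a, a ligand of CCR10 known from skin, was at 0.856, 1.15 and 1.61 FPKM in the WT-labelled libraries and 1.92, 1.74 and 1.82 FPKM in the KO-labelled libraries. Its groups did not overlap (log2 fold change 0.45, SE 0.22, adjusted p = 0.18, edgeR). Ccl25 (1.01, SE 0.55), a CCR9 ligand of thymus and gut, Ccl19 (0.71, SE 1.28), the other CCR7 ligand, and Ccl27b (0.56, SE 1.44) were not called either. Ccl27b had counts of 5, 13 and 0 against 18, 13 and 0. It turned negative without KO library 1 or WT library 3 (-0.115 and -0.014), and Ccl19 did so without KO library 3 (-0.13). Over the 7 tested genes of the group, 1 was higher, none was lower, and the median log2 fold change was 0.56, the value of Ccl27b. Of these 7, 6 lie close together on chromosome 4, between 41769467 and 42773993, with log2 fold changes from 0.14 to 0.88. The Ccl21 genes among them are near-identical copies, so they do not count as separate observations.

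The interferon-induced ligands of CXCR3, which draw activated T cells and NK cells, included a gene that fell under every alternative tried. Cxcl9 (ENSMUSG00000029417, chr5:92321347-92328079, minus strand, GRCm38) was at 2.35, 1.72 and 2.39 FPKM in the WT-labelled libraries and 1.51, 1.40 and 0.893 FPKM in the KO-labelled libraries. Every library labelled KO was below every one labelled WT. The scaled level was 7.56 ± 1.07 CPM (SD, n = 3) against 4.0 ± 0.936 CPM, 1.89-fold lower (log2 fold change -0.92, SE 0.20, adjusted p = 0.0076, edgeR). Its neighbour Cxcl10 had counts of 41, 62 and 31 in the WT-labelled libraries and 9, 12 and 32 in the KO-labelled libraries. These groups did not overlap once scaled, but the difference did not pass the test (log2 fold change -1.54, SE 0.72, adjusted p = 0.17, edgeR). Cxcl11, the remaining member of this cluster, had counts of 44, 15 and 19 against 63, 31 and 29, which overlap (log2 fold change 0.49). Their receptor gene Cxcr3 was not tested, with counts of 14, 0 and 24 against 4, 0 and 0.

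The promoter windows of Cxcl9 and Cxcl10 are shown because these neighbours respond to the same cytokines. Both strands of the 250 bases before each start were searched for 3 motifs: the interferon-stimulated response element as GAAA, any 2 bases and GAAA, the gamma-activated site as TTCNNNGAA, and the NF-kappaB consensus. Matches are in capitals (RefSeq, GRCm38.p6; chr5:92328080-92328329 and chr5:92348890-92349139, both minus strand).
Cxcl9 promoter: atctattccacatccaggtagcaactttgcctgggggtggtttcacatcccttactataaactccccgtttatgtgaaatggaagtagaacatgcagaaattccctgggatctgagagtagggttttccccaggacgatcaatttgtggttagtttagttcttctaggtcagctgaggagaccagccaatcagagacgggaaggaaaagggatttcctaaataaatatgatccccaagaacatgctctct
Cxcl10 promoter: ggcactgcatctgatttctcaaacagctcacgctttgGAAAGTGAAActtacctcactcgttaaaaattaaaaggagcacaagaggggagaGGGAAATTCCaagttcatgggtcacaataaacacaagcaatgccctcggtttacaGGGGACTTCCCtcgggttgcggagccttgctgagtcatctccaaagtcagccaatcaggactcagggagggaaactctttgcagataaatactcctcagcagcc
Cxcl10 held a response element match, GAAAGTGAAA, 213 bases before the start, and NF-kappaB matches at 159, 104 and 103 bases, the last 2 overlapping. The window of Cxcl9 held none of the 3. Over 27025 RefSeq promoters, 3.04% held the response element, 7.18% the gamma-activated site and 7.01% the NF-kappaB consensus. Of the 44 chemokine genes with a window, 3 held the response element, 2 the gamma-activated site and 10 the NF-kappaB consensus. These are matches of letters only, and no binding was measured.

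Cxcl16, a membrane-anchored ligand of CXCR6 that also takes up oxidised lipoprotein, was lower in the KO-labelled libraries. The gene (ENSMUSG00000018920, chr11:70453983-70459984, minus strand, GRCm38) was at 1.30, 1.68 and 1.01 FPKM in the WT-labelled libraries and 0.733, 0.891 and 0.692 FPKM in the KO-labelled libraries. The groups did not overlap, and the libraries labelled WT were the more spread. The scaled level was 4.73 ± 1.41 CPM (SD, n = 3) against 2.46 ± 0.362 CPM, 1.93-fold lower (log2 fold change -0.95, SE 0.25, adjusted p = 0.019, edgeR). The call was lost without WT library 1, WT library 2, KO library 1 or KO library 3 (adjusted p up to 0.085, edgeR). The other membrane-anchored ligand, Cx3cl1 (fractalkine), had a log2 fold change of 0.16 with overlapping groups. Its receptor gene Cx3cr1, a marker of patrolling monocytes and resident macrophages, had counts of 37, 34 and 60 against 14, 7 and 22. Those groups did not overlap, but the difference did not pass the test (log2 fold change -1.79, SE 0.71, adjusted p = 0.10, edgeR).

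Cxcl13, the B cell attractant that signals through CXCR5, had the largest log2 fold change of the 6 called genes. The gene (ENSMUSG00000023078, chr5:95956951-95961068, plus strand, GRCm38) was at 2.49, 1.76 and 1.95 FPKM in the WT-labelled libraries and 1.32, 0.367 and 0.780 FPKM in the KO-labelled libraries. The groups did not overlap, and the libraries labelled KO differed among themselves, with counts of 109, 33 and 71. The scaled level was 2.77 ± 0.513 CPM (SD, n = 3) against 0.987 ± 0.540 CPM, 2.81-fold lower (log2 fold change -1.49, SE 0.41, adjusted p = 0.024, edgeR). The call was lost without WT library 1, WT library 3 or KO library 3 (adjusted p up to 0.091, edgeR). Of 5 tested B cell markers 1 was lower, where 10.5% of all tested genes were lower. It was Ighm, the immunoglobulin heavy chain, at 9.12 to 10.9 FPKM against 3.4 to 4.0 FPKM. The list summed to 9.97 to 11.6 FPKM against 4.13 to 5.06 FPKM, nearly all of it Ighm. The other 5 markers summed to 0.687 to 0.993 FPKM against 0.634 to 1.07 FPKM, with log2 fold changes of 0.01 for Cd79a and -0.02 for Cd79b. Their part in the Cxcl13 result was not tested, and in bulk tissue fewer cells of a type and less RNA per cell cannot be told apart.

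Cxcl12, the ligand of CXCR4 and ACKR3 that retains progenitor cells and is made by mural cells and fibroblasts, had the most counts of all the ligands. It was at 8.04, 7.10 and 8.50 FPKM in the WT-labelled libraries and 9.81, 9.81 and 9.29 FPKM in the KO-labelled libraries. The groups did not overlap, yet the difference was small, 74.9 ± 3.66 CPM (SD, n = 3) against 82.6 ± 2.16 CPM, and did not pass the test (log2 fold change 0.14, SE 0.06, adjusted p = 0.11, edgeR). DESeq2 called it, with an adjusted p of 0.020. Cxcl14, an epithelial and fibroblast chemokine, had a log2 fold change of -0.03. Fibroblast and smooth muscle markers were lower in the same libraries. Of 8 fibroblast markers 7 were lower, with a median log2 fold change of -1.50, where 10.5% of all tested genes were lower. Of 6 smooth muscle markers 5 were lower, with a median of -1.80 when Myocd is set at its bound (at least 2.63-fold lower, from 12 counts per library). Myocd was at 0 counts in all 3 KO-labelled libraries and passed the filter only through the WT-labelled ones. The part of these cells in the Cxcl12 value was not tested.

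None of the 9 tested ligands that draw monocytes and macrophages passed the edgeR test, and 1 of them, Ccl5, had an unadjusted p under 0.05 and was called by DESeq2. Over all 16620 tested genes, 5503 had an unadjusted p under 0.05 (edgeR) and DESeq2 called 31.0%. Ccl6, made by myeloid cells, was at 7.71, 8.83 and 8.78 FPKM in the WT-labelled libraries and 10.6, 11.5 and 9.91 FPKM in the KO-labelled libraries. Its scaled counts overlapped (log2 fold change 0.19, SE 0.10, adjusted p = 0.24, edgeR). Ccl9, its relative in the same cluster, was at 2.97, 2.70 and 3.60 FPKM against 4.43, 3.84 and 3.43 FPKM, also overlapping (log2 fold change 0.19). Ccl8, a CCR2 and CCR8 ligand of tissue macrophages, was at 4.31, 2.48 and 3.21 FPKM against 4.78, 3.20 and 2.86 FPKM, with a log2 fold change of -0.04 whose sign depended on the processing. Ccl2, the main attractant of inflammatory monocytes and a target of angiotensin II signalling, was low in all 6 libraries, with counts of 33, 20 and 19 against 20, 55 and 21. No difference in Ccl2 was detectable at this depth (log2 fold change 0.23, SE 0.71, adjusted p = 0.87, edgeR).

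The rarer ligands of this group had wide errors. Ccl5, made by T cells and platelets, had counts of 59, 31 and 23 in the WT-labelled libraries and 6, 19 and 7 in the KO-labelled libraries. The groups did not overlap (log2 fold change -1.99, SE 0.81, adjusted p = 0.11, edgeR). Ccl12, a mouse CCR2 ligand, had counts of 24, 14 and 28 against 15, 0 and 0. The log2 fold changes of Ccl3, Ccl7 and Ccl4 were -1.18, -0.48 and 0.15, all with overlapping groups. A cluster at chr11:82035571-82305690 holds Ccl2, Ccl7, Ccl11, Ccl12, Ccl8 and Ccl1. Another, at chr11:83525778-83664683, holds Ccl5, Ccl9, Ccl6, Ccl3 and Ccl4. They held 10 tested genes between them, none of them called in the reported edgeR fit. Among its alternatives, edgeR called Ccl11 with a mean CPM of at least 1 (adjusted p = 0.044) and with counts divided by 4 (0.032). It also called Ccl11 with a replicate block (adjusted p = 0.031, edgeR), and Ccl12 without KO library 1 (0.032). DESeq2 called Ccl11 (adjusted p = 0.0042) and Ccl5 (adjusted p = 0.021), and limma on log2(FPKM + 0.1) called Ccl5 (adjusted p = 0.035) and Ccl6 (adjusted p = 0.039).

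Ccl11 (eotaxin), which draws eosinophils through CCR3 and is made by fibroblasts and smooth muscle, came closest to the threshold among the genes not called. It was at 4.21, 5.49 and 4.47 FPKM in the WT-labelled libraries and 1.57, 3.39 and 3.55 FPKM in the KO-labelled libraries. The groups did not overlap, with KO library 1 the lowest (log2 fold change -0.87, SE 0.30, adjusted p = 0.059, edgeR). DESeq2 called it, with an adjusted p of 0.0042, as did the edgeR alternatives given above for Ccl11. Ccl24, the other tested eotaxin, was at 0.919, 1.11 and 0.599 FPKM against 0.843, 0.955 and 1.22 FPKM, with a log2 fold change of 0.04 that turned negative without WT library 3 or KO library 3. The 5 neutrophil-attracting CXC ligands at chr5:90759360-90905938 were not tested: Cxcl5 and Cxcl3 had no count, and Cxcl1 had counts of 27, 4 and 5 against 4, 8 and 23.

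Conventional receptor transcripts were rare, and none of the 8 tested passed the threshold with edgeR, while Ccr9 and Cx3cr1 had an unadjusted p under 0.05 and were called by DESeq2. Over all 16620 tested genes, 5503 had an unadjusted p under 0.05 (edgeR) and DESeq2 called 31.0%. Cxcr4, the receptor of Cxcl12, had the highest level per length, at 0.694, 0.709 and 0.367 FPKM in the WT-labelled libraries and 0.741, 0.534 and 0.612 FPKM in the KO-labelled libraries. Its groups overlapped (log2 fold change -0.07, SE 0.40). Ccr2, the receptor of inflammatory monocytes, had more counts on average but a lower FPKM, with counts of 167, 73 and 116 against 171, 105 and 160 (log2 fold change 0.12). Ccr1, found on neutrophils and monocytes, had counts of 16, 34 and 40 against 95, 72 and 57. Its groups did not overlap, but the difference did not pass the test (log2 fold change 1.10, SE 0.54, adjusted p = 0.18, edgeR).

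Among the rarer receptors, Cxcr2, the receptor of neutrophil attractants, had counts of 8, 0 and 13 against 36, 31 and 9 (adjusted p = 0.36, edgeR). Ccr9, a gut-homing receptor, had counts of 0, 6 and 0 against 28, 42 and 16. The Ccr9 groups did not overlap, but it passed the filter only through the libraries labelled KO and was not called (adjusted p = 0.085, edgeR). Xcr1, a receptor of cross-presenting dendritic cells, had a log2 fold change of -0.87 with overlapping groups. Neutrophil markers were higher in the KO-labelled libraries: 6 of 7 tested were called, where 11.5% of all tested genes were higher. Like Ccr9, Retnlg, Mmp8 and Il1r2 passed the filter only through the libraries labelled KO, which in part fixes their calls. The list, without chemokine receptors, summed to 2.81 to 3.81 FPKM against 34.7 to 41.2 FPKM. The marker not called was Ly6g, at a mean of 0.168 against 0.0929 FPKM. Camp and Ngp, also on the list, had no count in any library, and Retnlg had none in the WT-labelled libraries (at least 10.7-fold higher, from 12 counts per library). The part of these cells in the values of Ccr1 and Cxcr2 was not tested.

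Of the 4 atypical receptors 2 were called, both higher in the KO-labelled libraries, where 11.5% of all tested genes were higher. Ackr3 (ENSMUSG00000044337, chr1:90203980-90216751, plus strand, GRCm38), which scavenges CXCL12, was at 3.82, 3.52 and 4.2 FPKM in the WT-labelled libraries and 5.12, 5.48 and 5.27 FPKM in the KO-labelled libraries. The groups did not overlap. The scaled level was 14.98 ± 0.629 CPM (SD, n = 3) against 18.61 ± 1.16 CPM, a 1.24-fold difference (log2 fold change 0.31, SE 0.09, adjusted p = 0.034, edgeR). It was therefore a small change in a transcript that was high for a chemokine gene. The call was lost when any library but KO library 1 was left out (adjusted p up to 0.12, edgeR).

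Ackr1 (ENSMUSG00000037872, chr1:173331886-173333750, minus strand, GRCm38), the Duffy antigen receptor, carries inflammatory chemokines across the endothelium of venules. It was at 0.588, 0.567 and 0.414 FPKM in the WT-labelled libraries and 1.69, 1.22 and 1.12 FPKM in the KO-labelled libraries. Counts were 65, 60 and 41 against 171, 134 and 123, with no overlap. The scaled level was 0.874 ± 0.190 CPM (SD, n = 3) against 1.98 ± 0.374 CPM, a 2.26-fold difference (log2 fold change 1.18, SE 0.35, adjusted p = 0.032, edgeR). The call was lost when any library but KO library 3 was left out (adjusted p up to 0.13, edgeR). Ackr2 and Ackr4, which remove inflammatory and homeostatic CC ligands, had log2 fold changes of 0.54 and 0.22 with overlapping groups. Of 6 tested endothelial markers, 2 were higher and 2 lower, where 11.5% of all tested genes were higher and 10.5% lower. Their median log2 fold change was 0.07, and the list summed to 55.3 to 58.2 FPKM against 63.9 to 67.0 FPKM.

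**Figure D4:**
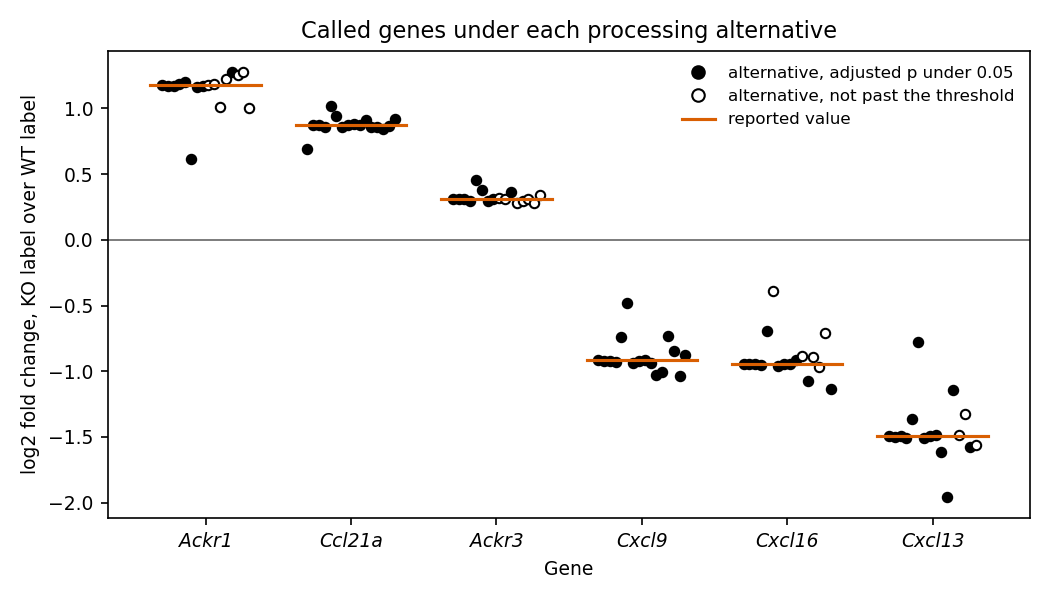
Log2 fold change of the 6 called genes under 16 processing alternatives (points, filled where the adjusted p was under 0.05), with the reported value as a line. Ccl21a and Cxcl9 were called under all 16, Cxcl13 under 13, Cxcl16 under 11, and Ackr1 and Ackr3 under 9 each. The Ccl21a point at 0.69 is that of the gene summed with its copies.

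Markers of the macrophages and lymphocytes that carry many of the receptors were counted in the same way. Of all tested genes, 10.5% were lower in the KO-labelled libraries and 11.5% were higher. Of 12 tested macrophage and monocyte markers, 5 were lower and 1 was higher, with a median log2 fold change of -0.38 and a sum of 73.6 to 88.6 FPKM in the WT-labelled libraries against 52.7 to 63.7 FPKM in the KO-labelled libraries. Lyz2, at a mean of 59.5 against 38.3 FPKM, made up most of that sum. Of 6 tested T and NK cell markers, 1 was lower, with a list sum of 0.852 to 1.06 FPKM against 0.296 to 0.576 FPKM. The 1 lower was Cd3e, at 0 counts in all 3 KO-labelled libraries (at least 2.45-fold lower, from 12 counts per library). It passed the filter only through the WT-labelled libraries. None of the 5 dendritic cell markers was called by edgeR. DESeq2, which called 31.0% of all tested genes, called Zbtb46, the only marker of these 5 with an unadjusted p under 0.05. The part of these cells in the lower Cxcl9, Cxcl13 and Cxcl16 was not tested.

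**Figure D5:**
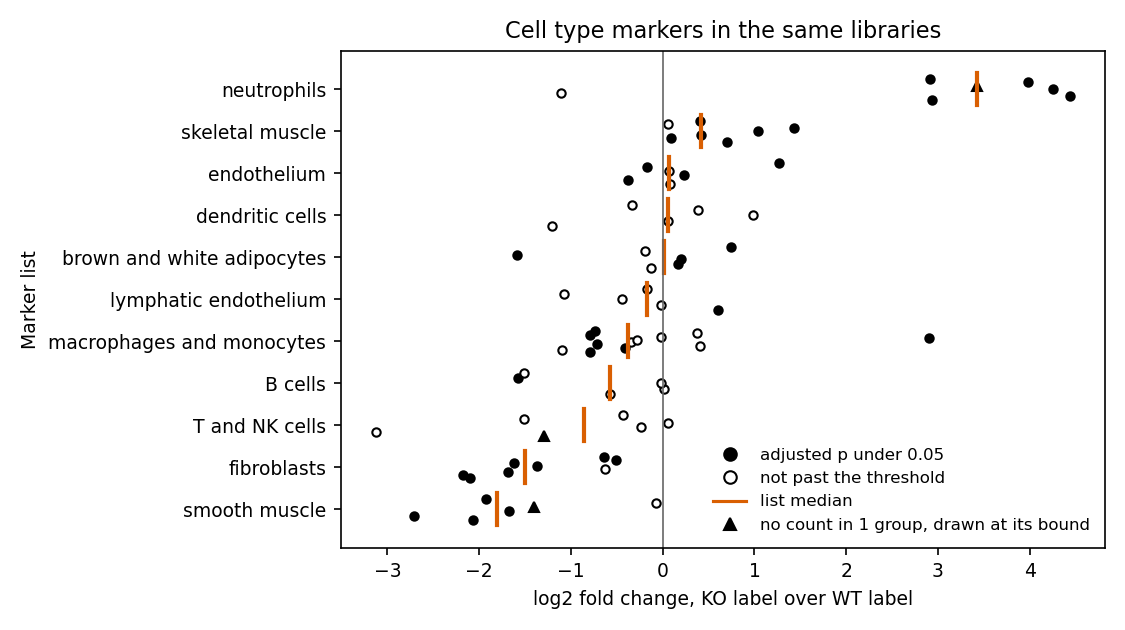
Log2 fold change of the tested markers of 11 cell types, without chemokine genes, with the list median as a bar and triangles for genes with no count in 1 group, drawn at their bound. Neutrophil markers lie highest (median 3.42 with Retnlg at its bound) and smooth muscle markers lowest (median -1.80). Of the neutrophil markers, Retnlg, Mmp8 and Il1r2 passed the filter only through the KO-labelled libraries.

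Of all tested genes, 10.5% were lower in the KO-labelled libraries and 11.5% were higher. No list was tested against these shares. Downstream of the receptors, 7 of 24 tested signalling genes were lower and none was higher, with a median log2 fold change of -0.29. They included Gnb1, a G protein beta subunit (-0.49, adjusted p = 6.8e-05, edgeR), Grk5, a kinase that desensitises receptors (-0.68, adjusted p = 0.0024, edgeR), and Gnai3, an inhibitory alpha subunit (-0.74, adjusted p = 0.0028, edgeR). Of 14 tested genes for proteins that anchor or cleave chemokines, 6 were lower and 1 was higher, with a median of -0.30. The 1 higher was Mmp8, which passed the filter only through the KO-labelled libraries. The gelatinases Mmp2 (-0.90, adjusted p = 0.00033, edgeR) and Mmp9 (-1.46, adjusted p = 0.010, edgeR) and the heparan sulfate proteoglycan Sdc2 (-0.81, adjusted p = 0.00084, edgeR) were among those lower.

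Of 14 tested cytokine and signalling genes that induce chemokines, DESeq2 called 5, where it called 31.0% of all tested genes. EdgeR, which called 22.0% of all tested genes, called only Il1b, the inflammatory cytokine made by myeloid cells. It was at 0.226 CPM in the WT-labelled libraries and 2.15 CPM in the KO-labelled libraries (log2 fold change 3.24, SE 0.47, adjusted p = 0.00059, edgeR). Ifng, the inducer of Cxcl9, had no count in any library. None of the 8 tested chemokine relatives outside the naming rule was called by edgeR, while 3 had an unadjusted p under 0.05 and were called by DESeq2. Over all 16620 tested genes, 5503 had an unadjusted p under 0.05 (edgeR). Ccrl2, a non-signalling receptor, had a log2 fold change of 0.98 and the chemerin receptor Cmklr1 one of -0.68.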

How the data were processed

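Poly(A) RNA was sequenced as paired ends, per the labels' protocols. The submitters' processing notes name HISAT2 2.0, Bowtie 0.12.2 and mm8. The sources used here name neither a counting program nor a strand setting. The authors deposited a table of raw read counts and FPKM per gene, per the file headers. Its coordinates matched GENCODE M21 (GRCm38) exactly for 51 of the 58 genes (87.9%) and 91.1% of all genes, so positions are GRCm38.

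Counts were tested with edgeR 4.0.16 in R 4.3.3 (filterByExpr, TMM, quasi-likelihood F-test, two-sided, Benjamini-Hochberg over 16620 genes, threshold 0.05). The SE is the size of the log2 fold change divided by the square root of F. Counts were simulated for these 16620 genes, with 50 genes changed at each fold. Of these, 30% of 1.5-fold, 66% of 2-fold, 88% of 3-fold and 94% of 5-fold changes were recovered, with 11 false calls. Recovery was not worked out by count level. These shares therefore do not give the recovery for genes with low counts, such as Ccl2, Ccl5, Cxcl10 and Ccr9. Between 33.0% and 34.9% of counts from 1 to 40 were multiples of 4, against 25%, so counts may overstate independent fragments. For genes without a count in a group, bounds use 12 counts per library and cover counting error only.

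Alternatives were DESeq2 1.42.0, its size factors, other filters, counts divided by 4, mitochondrial genes left out, and limma 3.58.1 on log2(FPKM + 1) and log2(FPKM + 0.1) of the deposited FPKM. The others were a replicate block, each library left out, and Ccl21a summed with its copies. Promoters come from RefSeq (44 of 58 genes matched) and coding sequences from GENCODE M21. Genes named with every value were those called or with a mean of at least 1 FPKM in 1 group; from each pathway and cell list at most 3 with the smallest adjusted p were to be named, and further markers named beside a result were chosen after their values were seen. The genes and lists were chosen with earlier results of these data known, and Ccl21d was placed in its role group after the symbols were seen. Ccl26, Ccl21c, Ccr6 and Cxcr1 were not analysed here, and 1 tested gene that was not called is counted but not reported here.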

Additional observations from a re-analysis of the deposited data

How the results depend on the processing

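Ccl21a and Cxcl9 kept their direction and call under all 16 alternatives (log2 fold change 0.69 to 1.02, and -1.03 to -0.48). The 0.69 is the value of Ccl21a summed with its copies, and the lowest for Ccl21a alone was 0.84, without WT library 1. The number of chemokine genes higher in the libraries labelled KO was 3. It was 5 with DESeq2, 5 with limma on either FPKM scale, and 1 without a filter on low counts. Over all tested genes the number higher was 1907, and 2571 with DESeq2. It was 2554 and 2547 with limma (pseudocounts 1 and 0.1), and 1688 without the filter. The number of chemokine genes lower was 3, and 6 with DESeq2, against 1751 and 2576 of all tested genes. Leaving out 1 library at a time gave 1 to 2 chemokine genes higher and 1 to 3 lower. Over all tested genes, it gave 1465 to 1703 higher and 1411 to 1468 lower. The share of chemokine genes called was above that of all tested genes under only 3 of the 16 alternatives. The median log2 fold change of 0.15 became -0.055 without the filter, where 52 genes were tested in place of 38, 0.077 and 0.215 with limma (pseudocounts 1 and 0.1), and -0.115 to 0.107 with a library left out. On the FPKM scales 73% and 72.5% of all calls were higher, against 52.1% on counts. Deviations from the group means correlated at 0.024, -0.009 and 0.018 between same-numbered libraries, and at -0.047 to 0.029 between differently numbered ones. These values cannot exclude a batch or litter shared by same-numbered libraries, and the labels give only the number. With the replicate block, 1 chemokine gene was higher (Ccl21a) and 4 were lower, Ccl11 among them. Over all tested genes, 1703 were higher and 1552 lower with the block. Ackr1 and Ackr3 lost their calls without the filter (adjusted p 0.051 and 0.058, edgeR) and with the block (0.051 and 0.064), and Cxcl16 with limma at pseudocount 1 (0.053). Over all genes 3658 were called, 5147 with DESeq2. Signs turned for genes near 0: Ccl8 was at 0.089 and 0.113 with limma and at -0.259 to 0.195 with a library left out, Ccl21d at -0.174 to 0.341, and Ccl24 at -0.190 to 0.279. Apart from the number of genes tested, the cause was not tested.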
